A study of Mus musculus with 3 samples.

Results

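The genes described here are 6 genes of glucose production and fuel choice, G6pc, Pck1, Fbp1, Slc37a4, Pdk4 and Slc5a12, out of 31053 genes counted in each library. They were chosen by name, with their levels by intestinal segment, villus zone and cell class in these libraries already known, so those levels are given as a description and without a test. The study used single-cell RNA sequencing of the mouse small intestinal epithelium. It comprised 1 library each of duodenum, jejunum and ileum, 3 in all, from wildtype (WT) C57BL/6N males aged 12 weeks, with no transgene and no treatment named. Cells of 3 mice were pooled after each intestine had been divided into these segments, so the libraries are parts of the same pooled animals as the methods read, not of independent ones. Each library was sorted for live cells by exclusion of propidium iodide, so that the intestinal epithelial cells came with intraepithelial immune cells. The library titles end in CD, a code that the labels do not spell out.

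Gluconeogenesis is the synthesis of glucose from lactate, pyruvate, glycerol and the carbon skeletons of amino acids. It runs most steps of glycolysis backwards, and it replaces the irreversible steps by enzymes of its own. Liver and kidney are its known main sites, and in the small intestine its enzymes are found in the absorptive cells, the enterocytes, which are born at the crypt and migrate up the villus until they are shed at the tip. Pck1 is the cytosolic phosphoenolpyruvate carboxykinase, which turns oxaloacetate into phosphoenolpyruvate. Fbp1 is the fructose bisphosphatase of liver and kidney. Slc37a4 carries glucose phosphate into the endoplasmic reticulum, where G6pc, the catalytic subunit of glucose phosphatase, releases free glucose. Pdk4 is a kinase that switches off pyruvate dehydrogenase and so spares pyruvate from oxidation, and Slc5a12 is a sodium-coupled carrier of lactate and other monocarboxylates in the brush border.

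In the GRCm38 build G6pc (ENSMUSG00000078650) lies on the plus strand at chr11:101367561-101377903 with 5 exons in its longest coding transcript. Pck1 (ENSMUSG00000027513) lies on the plus strand at chr2:173153048-173159273 with 10 exons. Fbp1 (ENSMUSG00000069805) lies on the minus strand at chr13:62864753-62888282 with 7 exons. Slc37a4 (ENSMUSG00000032114) lies on the plus strand at chr9:44396852-44402968 with 9 exons. Pdk4 (ENSMUSG00000019577) lies on the minus strand at chr6:5483351-5496309 with 11 exons. Slc5a12 (ENSMUSG00000041644) lies on the plus strand at chr2:110597298-110647779 with 15 exons. These positions and exons come from the GENCODE annotation of that build.

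The genes fell into a group with its highest level in the duodenum and a group with its highest level in the jejunum, and the promoters are shown in that order, since members of a group shared their segment and part of their villus profile. RefSeq promoter windows of 250 bases before to 50 bases after the start site (GRCm38.p6) were matched for 5 of the 6 genes, and a promoter of Slc5a12 is not shown. Capitals mark matches, on either strand, to 6 motifs. These were the TATA box TATAAA, the core TGACGT of the cAMP response element, the forkhead motif TGTTTAC, the HNF4 motif CAAAGTCCA, the nuclear receptor core AGGTCA and the HNF1 core GTTAAT, and no match of one overlapped another in these windows. For Slc37a4, which has 3 windows, the one with the most matched bases is shown. The windows are chr11:101367466-101367765 on the plus strand for G6pc, chr13:62888233-62888532 on the minus strand for Fbp1, chr9:44396696-44396995 on the plus strand for Slc37a4, chr2:173152823-173153122 on the plus strand for Pck1 and chr6:5496229-5496528 on the minus strand for Pdk4.
G6pc: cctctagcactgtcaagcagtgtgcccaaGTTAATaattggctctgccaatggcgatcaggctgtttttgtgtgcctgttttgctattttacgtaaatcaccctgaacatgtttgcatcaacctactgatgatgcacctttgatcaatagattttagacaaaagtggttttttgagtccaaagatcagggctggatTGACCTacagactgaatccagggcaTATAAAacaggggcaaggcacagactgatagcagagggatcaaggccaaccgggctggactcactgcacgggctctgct
Fbp1: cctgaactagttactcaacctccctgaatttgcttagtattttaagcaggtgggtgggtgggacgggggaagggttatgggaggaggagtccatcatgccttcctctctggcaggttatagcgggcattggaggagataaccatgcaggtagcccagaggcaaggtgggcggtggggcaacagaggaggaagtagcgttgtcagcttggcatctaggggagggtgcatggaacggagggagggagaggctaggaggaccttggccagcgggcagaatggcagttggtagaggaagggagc
Slc37a4: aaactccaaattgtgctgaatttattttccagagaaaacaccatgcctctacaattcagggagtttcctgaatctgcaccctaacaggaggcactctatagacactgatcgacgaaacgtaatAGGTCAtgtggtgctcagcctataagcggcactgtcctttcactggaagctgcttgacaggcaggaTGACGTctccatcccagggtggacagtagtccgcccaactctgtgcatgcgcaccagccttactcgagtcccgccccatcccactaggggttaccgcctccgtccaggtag
Pck1: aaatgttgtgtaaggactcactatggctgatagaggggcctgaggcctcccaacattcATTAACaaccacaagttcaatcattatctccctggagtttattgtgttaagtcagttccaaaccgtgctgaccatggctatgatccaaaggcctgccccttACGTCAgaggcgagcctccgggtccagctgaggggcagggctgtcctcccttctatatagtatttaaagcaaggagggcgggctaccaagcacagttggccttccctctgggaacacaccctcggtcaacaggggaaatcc
Pdk4: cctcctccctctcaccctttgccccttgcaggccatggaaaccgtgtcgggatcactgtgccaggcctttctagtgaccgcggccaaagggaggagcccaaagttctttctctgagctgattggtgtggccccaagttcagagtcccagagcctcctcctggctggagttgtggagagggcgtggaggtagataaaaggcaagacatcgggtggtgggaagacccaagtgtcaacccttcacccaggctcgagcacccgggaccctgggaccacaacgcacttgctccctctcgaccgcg

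The G6pc window held a TATA box from 29 bases before the start, a nuclear receptor core from 54 bases before it and an HNF1 core from 221 bases before it. The Pck1 window held a cAMP response element core from 91 bases before the start and an HNF1 core from 192 bases before it. The Slc37a4 window held a cAMP response element core from 61 bases and a nuclear receptor core from 127 bases before the start. The Fbp1 and Pdk4 windows held none of these letters. Of 32851 promoter windows in the table, 13.6% held TATAAA, 7.51% TGACGT, 3.65% TGTTTAC, 0.475% CAAAGTCCA, 16.3% AGGTCA and 7.10% GTTAAT. The groups by segment therefore did not share a motif of this set in every window, and a match is only a run of letters.

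In the order duodenum, jejunum, ileum the files held 9501, 8139 and 9595 barcodes, with 98518847, 87656078 and 78074516 unique molecular identifiers (UMIs, each standing for 1 captured mRNA molecule). After the study's filters 4255, 4360 and 8071 cells remained. Clusters named enterocyte or early enterocyte by their markers, with a marker score of at least 0.4, held 3606, 3585 and 4431 of them, together called absorptive cells below. In 3 of these clusters no enterocyte marker was among the 10 leading genes, namely a cluster of 1392 cells led by the haemoglobin genes Hbb-bs and Hba-a1, one of 1116 cells led by the tip landmarks Nt5e and Ada and one of 334 cells led by the interferon-induced genes Ifit1 and Rsad2, although 20 or 22 of the 22 enterocyte markers were detected in each. Slc5a12 and Pck1 led the largest cluster (3079 cells) although they were left out of the genes used for clustering. Their median UMI count was 12666, 12505 and 6837 in that order, and their median share of mitochondrial UMIs was 28.3%, 28.3% and 12.3%. Kept cells of different libraries shared 4 to 12 barcodes a pair. As each segment was 1 library, segment and library cannot be told apart, and intervals given with levels (exact Poisson, 95%) cover counting error only. A level below is a gene's UMI sum scaled to 10000 UMIs of those cells. Levels of different genes are not compared, as capture at the mRNA end differs between genes.

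Fbp1, Slc37a4 and G6pc, which act in the last steps of glucose production, were highest in the duodenum and lower distally. G6pc had 6310 UMIs in duodenal, 3132 in jejunal and 749 in ileal absorptive cells, which gave levels of 1.28 (1.25 to 1.32), 0.611 (0.590 to 0.633) and 0.178 (0.165 to 0.191). The duodenum was thus 2.10-fold above the jejunum and 7.22-fold above the ileum. Fbp1 had levels of 0.954 (0.926 to 0.981), 0.335 (0.320 to 0.352) and 0.0779 (0.0697 to 0.0868), the steepest ratio of the 6 genes from duodenum to ileum at 12.2-fold. Slc37a4 had levels of 0.957 (0.930 to 0.985), 0.478 (0.459 to 0.497) and 0.197 (0.184 to 0.211), a ratio of 4.86-fold between duodenum and ileum. None of these intervals overlapped between segments.

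Pck1, which feeds the pathway, and the fuel genes had their highest level in the jejunum instead. Pck1 had 2091 duodenal, 22575 jejunal and 4677 ileal UMIs, or levels of 0.425 (0.407 to 0.444), 4.41 (4.35 to 4.47) and 1.11 (1.08 to 1.14). The jejunum was 10.4-fold above the duodenum and 3.97-fold above the ileum. Slc5a12 had levels of 0.102 (0.0932 to 0.111), 0.937 (0.911 to 0.964) and 0.174 (0.162 to 0.187), with the same order of segments as Pck1. Pdk4 had levels of 0.415 (0.397 to 0.433), 1.46 (1.43 to 1.49) and 0.348 (0.330 to 0.366). The duodenal and ileal levels of Pdk4 differed by 0.26 on the log2 scale, and this order turned under other settings, to -0.15 with cells of at most 20% mitochondrial UMIs, to -0.82 with the T cell level subtracted and to -0.08 with the mean over cells. The duodenal T cell level behind the -0.82 was 0.265 (0.0860 to 0.618), from 5 UMIs.

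**Figure D1:**
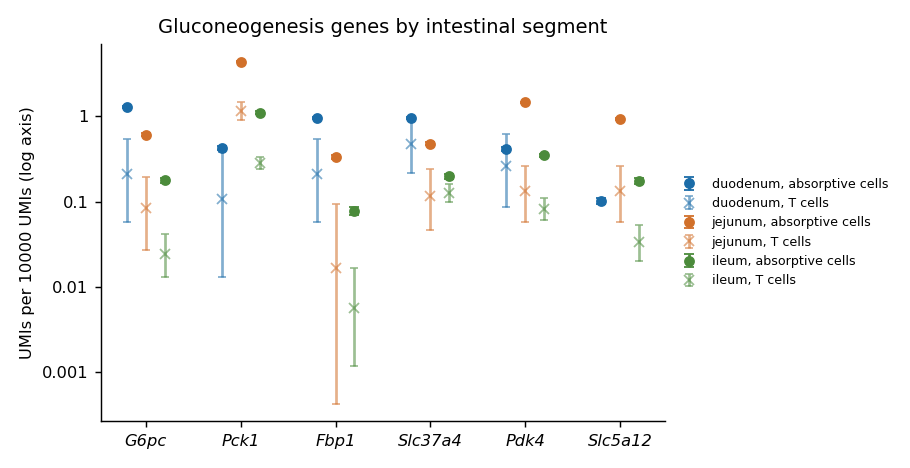
Level of each gene (UMIs per 10000 UMIs, log axis) in the summed absorptive cells (circles) and T cells (crosses) of each library, with exact 95% Poisson intervals, and T cell sums without a UMI left out. G6pc, Fbp1 and Slc37a4 were highest in the duodenum (1.28, 0.954 and 0.957), and Pck1, Pdk4 and Slc5a12 in the jejunum (4.41, 1.46 and 0.937).

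Depth and mitochondrial share were lower in the ileum and nearly equal in duodenum and jejunum, and their part in the differences from the ileum was not tested beyond the values given here. Within cells of at most 20% mitochondrial UMIs (704 duodenal, 707 jejunal and 3586 ileal cells) the highest segment was the same for each of the 6 genes. G6pc was at 1.09, 0.758 and 0.171 there, Pck1 at 0.351, 5.27 and 1.10, and Fbp1 at 1.60, 0.627 and 0.0811. The duodenal level of Fbp1 was 0.750 in the 2902 cells above that limit, and its jejunal level 0.227 in the 2878 cells above it. Across the genome, 11.0% of the 10555 genes with at least 100 UMIs over both sums were past 2-fold higher and 12.0% past 2-fold lower in the duodenum than in the ileum. Of the 6 genes, 3 were past it in the first direction and 1, Pck1, in the other, which is stated without a reading since this contrast was known when they were chosen.

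At an equal depth of 800 UMIs a cell, the share of absorptive cells with at least 1 UMI had the same order of segments as the level for the genes other than Pdk4. For Pdk4 the share was 3.44% in the duodenum and 3.50% in the ileum, while its level was higher in the duodenum. Pck1 was found in 3.08% (exact binomial 95% interval 2.54 to 3.70) of duodenal, 21.9% (20.6 to 23.3) of jejunal and 10.0% (9.17 to 11.0) of ileal cells. In T cells, taken for comparison although their Pck1 lay above the enterocyte markers in jejunum and ileum as given with the cell classes, it was found in 0 of 35 duodenal cells, which allows up to 10.0% by the exact interval, and in 2.78% (0.577 to 7.90) of jejunal and 0.830% (0.380 to 1.57) of ileal cells. G6pc was found in 8.49%, 3.88% and 1.62% of absorptive cells, and Pdk4 in 10.3% of jejunal ones. In the duodenum the T cell interval held the absorptive share of each gene, as with G6pc (0.0723 to 14.9), so no share stood apart there. Jejunal T cell intervals held the absorptive shares of G6pc (0.0234 to 5.05), Fbp1 (0 to 3.36) and Slc37a4 (0.577 to 7.90). Slc5a12 reached 6.97% in the jejunum, against 0.860% in the duodenum and 1.85% in the ileum. Fbp1 in the ileum, at 0.271% (0.140 to 0.473), lay within the interval of the ileal T cells (0.0923%, 0.00234 to 0.513), so this share did not separate them. By level they were apart, at 0.0779 (0.0697 to 0.0868) in absorptive cells and 0.00563 (0.00116 to 0.0165, from 3 UMIs) in T cells. For Slc37a4 in the ileum the shares were 1.44% (1.11 to 1.84) and 1.20% (0.640 to 2.04), and the levels 0.197 (0.184 to 0.211) and 0.126 (0.0974 to 0.160). Without thinning, Pck1 was found in 66.8% of jejunal and 18.5% of duodenal absorptive cells, and median depth was 12505 UMIs in jejunal absorptive cells against 4631 in jejunal T cells.

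To follow the genes along the villus, absorptive cells of each library were ranked by a position score and split into 5 equal zones, from zone 1 at the bottom to zone 5 at the top. The score was the mean standardised level of 9 tip landmarks, such as Ada, Nt5e and Apoa4, minus that of 10 bottom landmarks, such as Reg3b, Lypd8 and Ccl25, and none of the genes described here entered it. Early enterocytes made up 362 of 722 cells in zone 1 of the duodenum and 0 of 721 in zone 5. All 10 bottom landmarks are also markers of early enterocytes, so this placement is no check on the zones. The zones also differed in depth, with median UMI counts of 17870, 18563 and 12956 in zone 1 and 8588, 11178 and 7562 in zone 5 of duodenum, jejunum and ileum, and in the mitochondrial share, whose median was 25.7%, 26.5% and 16.1% in zone 1 and 28.0%, 25.6% and 8.09% in zone 5, and the part of either in the zone differences was not tested. Between 26.5% and 28.2% of the cells of a library lay within 0.1 SD of a zone limit. Creb3l3, a gene of the upper villus, had levels of 2.49, 4.07 and 1.13 in zone 1 and of 9.18, 12.9 and 9.41 in zone 5 of duodenum, jejunum and ileum, while the crypt gene Mki67 was at most 0.0431 in any zone. Slc5a1 and Slc7a7 had been set as checks of the middle villus, but neither was highest in zone 3. Slc5a1 was highest in zone 2 of duodenum and ileum (23.8 and 7.72) and zone 1 of the jejunum (11.9). Slc7a7 was highest in zone 1 of duodenum and jejunum (1.08 and 2.09) and zone 2 of the ileum (2.39). The crypt gene Olfm4 was at 0.0213, 0.0208 and 0.0327 in zone 1 and no lower in zone 5 (0.0390, 0.0337 and 0.0519). The tip landmark Ada, which rises by construction as part of the score, was between 0.570 and 0.714 in zone 1 and between 92.9 and 108 in zone 5.

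Fbp1 and Slc37a4 were highest at the villus bottom. Fbp1 was at 1.50 (1.43 to 1.56) in zone 1 of the duodenum and at 1.42 (1.35 to 1.50), 0.797, 0.304 and 0.0795 in the zones above it, so that zones 1 and 2 overlapped there. In the jejunum it passed from 0.710 to 0.0180 (15 UMIs) and in the ileum from 0.169 to 0.00649 (5 UMIs). T cells of these libraries had Fbp1 at 0.0166 (1 UMI) and 0.00563 (3 UMIs), so zone 5 was not apart from them. Duodenal T cells had it at 0.212 (0.0577 to 0.542, 4 UMIs), an interval that held zone 5 of the duodenum as well. No background was subtracted from the zone levels. The difference between zone 5 and zone 1 was -4.74 ± 0.53 on the log2 scale (SD, n = 3 libraries), the largest of the 6 genes, and zone 1 held 46.3% ± 8.69 of the summed profile. Slc37a4 was highest in zone 1 of the duodenum (1.31, 1.25 to 1.37, which overlapped the 1.13 to 1.26 of zone 2) and the jejunum (0.852) and in zone 2 of the ileum (0.333), where the interval (0.291 to 0.381) overlapped that of zone 1 (0.267 to 0.326). Its difference between zone 5 and zone 1 was -3.30 ± 0.64 (SD, n = 3), and all 3 libraries were lower in zone 5. T cells had Slc37a4 at 0.477 (0.218 to 0.905), 0.116 (0.0467 to 0.240) and 0.126 (0.0974 to 0.160) in duodenum, jejunum and ileum. Zone 5 was at 0.221, 0.0710 and 0.0221, so it was not above T cells in any library.

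G6pc, the enzyme that acts after them, had its highest level in zone 2 of each library. Its level was 1.29, 1.82, 1.64, 0.988 and 0.288 from zone 1 to zone 5 of the duodenum. In the jejunum zone 2 was at 0.967 (0.907 to 1.03), which overlapped zone 1 (0.812 to 0.910), and zone 5 was at 0.130. In the ileum zone 2 was at 0.350, the zone in which ileal Slc37a4 was highest too, and zone 5 at 0.0260. T cells had G6pc at 0.212 (0.0577 to 0.542), 0.0830 (0.0270 to 0.194) and 0.0244 (0.0130 to 0.0417) in duodenum, jejunum and ileum. Zone 5 was thus not apart from them in any library. Zone 5 was below zone 1 by -2.51 ± 0.30 on the log2 scale (SD, n = 3), and below the maximum by 6.30-fold, 7.44-fold and 13.5-fold in duodenum, jejunum and ileum.

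Pck1 and Pdk4 were highest in middle zones of this score. Pck1 in the jejunum was at 2.47 in zone 1, 7.05 in zone 2, 6.45 in zone 3, 4.29 in zone 4 and 2.24 in zone 5. In the ileum its maximum of 2.43 was in zone 3, against 0.478 in zone 1 and 0.288 in zone 5, and in the duodenum its maximum of 0.654 was also in zone 3. Ileal T cells had Pck1 at 0.287 (0.243 to 0.336), so ileal zone 5 was not apart from them. Duodenal T cells had it at 0.106 (0.0128 to 0.383, 2 UMIs), an interval that held duodenal zone 5 (0.204). Zones 2 and 3 held the highest levels of Pck1 in all 3 libraries. Pdk4 was highest in zone 3 of each library, at 0.566 (0.519 to 0.616), 2.12 (2.03 to 2.22) and 0.556 (0.502 to 0.613), though a neighbouring zone overlapped it each time (zone 4 of the duodenum at 0.526, zone 2 of the jejunum at 2.04 and zone 2 of the ileum at 0.493), and it kept more of its level at the top, since zone 5 was at 0.348, 1.15 and 0.252 and above zone 1 (0.252, 0.691 and 0.198) in all 3 libraries. Duodenal T cells had Pdk4 at 0.265 (0.0860 to 0.618, 5 UMIs), so duodenal zone 5 was not apart from them. The difference of zone 5 from zone 1 was 0.51 ± 0.20 for Pdk4 and -0.36 ± 0.32 for Pck1 (SD, n = 3). For Pck1 it was -0.21, -0.14 and -0.73 in duodenum, jejunum and ileum, and the mean was -0.18 without the ileum library. The sign for Pck1 rested on the scale and the cells. It was 0.23 with sums scaled by the trimmed mean of M-values (TMM), 0.03 with odd landmarks only, 0.01 with absorptive cells taken by markers and 0.51 with at most 20% mitochondrial UMIs, which left 140 cells in zone 5 of the duodenum.

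Slc5a12 had its maximum in a middle zone of the score that differed between segments. In the jejunum its level was 0.811, 1.87, 1.23, 0.546 and 0.113 from zone 1 to zone 5, and in the ileum 0.102, 0.480, 0.321, 0.0606 and 0.0117. In the duodenum it was 0.0276 (39 UMIs), 0.106, 0.197, 0.163 and 0.0435 (29 UMIs), so that its maximum was in zone 3 there and in zone 2 elsewhere. Zone 5 against zone 1 was -2.84 in the jejunum, -3.13 in the ileum and 0.65 in the duodenum on the log2 scale. The intervals of zones 1 (0.0197 to 0.0378) and 5 (0.0291 to 0.0625) overlapped in the duodenum. The mean of -1.77 ± 2.11 (SD, n = 3) thus covered libraries of opposite direction, and it was 0.30 with at most 20% mitochondrial UMIs.

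**Figure D2:**
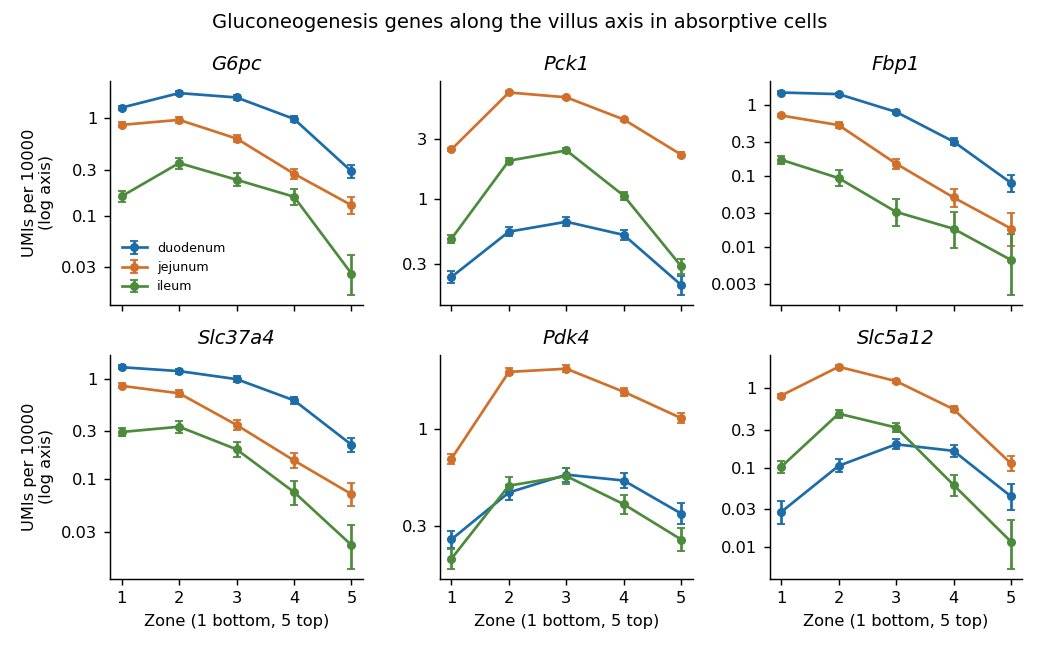
Level of each gene (UMIs per 10000 UMIs, log axis) in 5 zones of the absorptive cells of each library, from the villus bottom (1) to the top (5), with exact 95% Poisson intervals. Fbp1 was highest in zone 1 of all 3 libraries, G6pc in zone 2 and Pdk4 in zone 3, and the interval of a neighbouring zone overlapped the highest one for Fbp1 in the duodenum, for G6pc in the jejunum and for Pdk4 in each library.

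UMIs per 10000 depend on what else a cell contains. The median over all genes tested was -0.74 for zone 5 against zone 1 with library sizes only and -0.13 with TMM factors. Relative to the median gene on the TMM scale the differences were -4.01 for Fbp1, -2.53 for Slc37a4, -1.78 for G6pc, -1.14 for Slc5a12, 0.36 for Pck1 and 1.24 for Pdk4. The highest segment of each gene was the same in all 5 zones, duodenum for G6pc, Fbp1 and Slc37a4 and jejunum for Pck1, Pdk4 and Slc5a12, and its interval lay apart from that of the next segment in all 5. For Fbp1 the duodenum stood above the ileum by 8.89-fold in zone 1 and by 25.8-fold in zone 3, and for Slc5a12 the jejunum stood above the duodenum by 29.3-fold in zone 1 and 6.26-fold in zone 3.

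The other genes of glucose metabolism were not used to choose the 6 genes, and 70 of them, in 6 lists, were tested for a difference between zone 5 and zone 1. The test was edgeR's quasi-likelihood test on UMIs summed by library and zone. Its model held a term for the library, and p-values were adjusted across all genes by Benjamini and Hochberg, so its replicates are the 3 segments. Of 10464 genes tested, 26.0% were higher and 31.0% lower in zone 5 at an adjusted p under 0.05. Of 63 pathway genes that passed the filter, 13 (20.6%) were higher and 29 (46.0%) were lower, with a median log2 fold change of -0.55 against -0.13 over all genes. With library sizes only, 6 pathway genes were called higher and 34 lower, against 1368 and 4705 over all genes, so the split rests on the scaling. Without the jejunum library 8 pathway genes were called higher and 22 lower.

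Of 5 genes of glucose exit and sugar entry, 4 were lower in zone 5 and none was higher, and Khk, Tkfc and Slc5a1 are given to complete this list although they fall outside the rule for named genes. Slc2a2, the basolateral glucose carrier by which glucose leaves the cell, passed from 5.84 to 1.00 between zone 1 and zone 5 of the duodenum and from 2.70 to 0.0529 in the jejunum, and it fell by 3.32 ± 0.59 (SE) on the log2 scale (edgeR adjusted p = 0.00372). Slc2a5, the fructose carrier of the brush border, fell by 2.46 ± 0.28 (adjusted p = 0.000775). Khk and Tkfc, which phosphorylate fructose and its product glyceraldehyde, fell by 1.92 ± 0.20 and 1.76 ± 0.23 (adjusted p = 0.000631 and 0.00122). Slc5a1, the sodium-glucose carrier, had -1.21 ± 0.44 and an adjusted p of 0.0524, with a lower zone 5 in all 3 libraries. All of these values are edgeR log2 fold changes.

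Among the genes that bring substrates into the pathway, 9 of 19 tested were lower and 3 were higher in zone 5. Got2, the mitochondrial aspartate aminotransferase, fell by 2.67 ± 0.34 (edgeR adjusted p = 0.00106) and was at 0.660, 0.333 and 0.182 in zone 1 of duodenum, jejunum and ileum and at 0.0780, 0.0180 and 0.0312 in zone 5. The 3 called higher were Pcx, Gk and Slc5a8. Pcx, the pyruvate carboxylase that makes oxaloacetate for Pck1, rose by 1.97 ± 0.29 (adjusted p = 0.00192), from 0.171 to 0.764 in the duodenum, from 0.134 to 0.362 in the jejunum and from 0.0965 to 0.136 in the ileum. Gk, the glycerol kinase, had 1.16 ± 0.32 (adjusted p = 0.0209) with 2 of 3 libraries higher, as the ileum passed from 1.82 to 1.51, and this call was lost without TMM factors and without the duodenum library, where it was 0.77. Gk is named although it falls outside the rule.

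Of 10 genes for the reversible steps that glycolysis and gluconeogenesis share, 4 were lower and 2 higher in zone 5, near the 31.0% and 26.0% of all genes, and the median was -0.30. Aldoc, an aldolase, fell by 3.29 ± 0.38 (edgeR adjusted p = 0.000786), and its zone 5 levels were at most 0.0150. Eno3, an enolase, had 1.45 ± 0.45 (adjusted p = 0.0312) but was higher in zone 5 in only 2 of 3 libraries on the scale of UMIs per 10000, and its call was lost without TMM factors, with at most 20% mitochondrial UMIs and without the duodenum (1.39) or the jejunum library (0.94). Of 9 genes for the one-way steps of glycolysis, 3 were lower and 1 was higher. Pfkm, a phosphofructokinase, fell by 4.14 ± 0.79 (adjusted p = 0.00487), from 0.0390, 0.0272 and 0.0119 in zone 1 to 0.00150, 0 and 0.00130 in zone 5. Both subunits of pyruvate dehydrogenase in the list, the enzyme that Pdk4 inhibits, were lower. Pdha1 fell by 1.78 ± 0.28 and Pdhb fell by 1.52 ± 0.21 (adjusted p = 0.00248 and 0.00146), and they are named as the remaining members of that count. Hk1, a hexokinase, rose by 2.63 ± 0.53 (adjusted p = 0.00631), though its level was at most 0.0377. Pfkm and Hk1 did not pass the filter with at most 20% mitochondrial UMIs.

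Of 14 regulators, 6 were called higher, 5 lower and 3 in neither direction. The calls of Creb3l3, Hnf4a and Foxo1 among the higher and of Ppargc1a, Ppara and Cebpb among the lower held in all alternatives with a library block. Creb1 and Crtc2, each higher in 2 of 3 libraries, lost theirs without TMM factors and without the ileum library (0.56 and 0.71), and Creb1, Hnf4g and Esrra without the jejunum library (0.74, -0.81 and -0.61). Ppargc1a, a coactivator that is known to raise Pck1 and G6pc in liver, fell by 2.88 ± 0.43 (edgeR adjusted p = 0.00191) and was at 1.61, 1.02 and 0.375 in zone 1 and 0.359, 0.0397 and 0.0273 in zone 5. Ppara, the fatty acid receptor, fell by 2.74 ± 0.33 (adjusted p = 0.000940). Creb3l3, the check gene named above, rose by 2.78 ± 0.36 (adjusted p = 0.00116). Its call was foreseen, since it served as a check on the zones, and it remains in the counts of genes called higher. Hnf4a, a nuclear receptor of liver and gut, rose by 2.15 ± 0.24 (adjusted p = 0.000703), from 1.75 to 4.42, 1.74 to 5.19 and 2.15 to 7.36. Foxo1, the insulin-responsive forkhead factor, rose by 1.55 ± 0.27 (adjusted p = 0.00345). Sik1, a kinase that restrains cAMP signalling, had 1.23 ± 0.39 (adjusted p = 0.0343) with 2 of 3 libraries higher, and its call was lost without TMM factors, with at most 20% mitochondrial UMIs and without the duodenum (1.28) or the jejunum library (0.78).

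**Figure D3:**
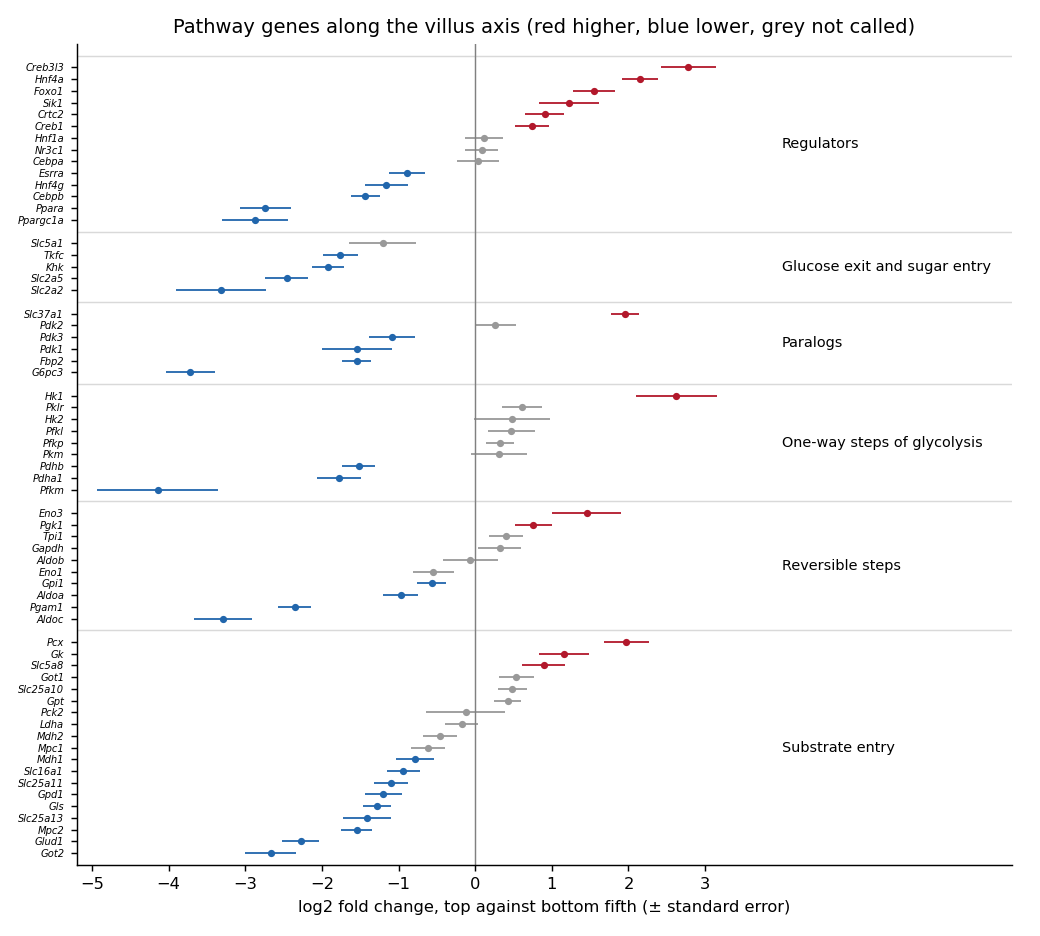
edgeR log2 fold change (± standard error) of zone 5 against zone 1 for the 63 pathway genes tested, by list, where red and blue mark adjusted p under 0.05. The 29 genes that were lower include 4 of 5 for glucose exit and sugar entry, and the 13 that were higher include Pcx and Hnf4a.

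The paralogs are described beside the members without a test of the difference. Fbp2, the muscle-type fructose bisphosphatase, had levels of 2.98, 3.0 and 2.99 in duodenum, jejunum and ileum, where Fbp1 differed by 12.2-fold, and it fell along the villus by 1.55 ± 0.19 (edgeR adjusted p = 0.00102). G6pc3, the glucose phosphatase found in most tissues, fell by 3.72 ± 0.32 (adjusted p = 0.000352) and had levels of 0.102, 0.0586 and 0.0689 by segment, and G6pc2, the islet form, had 0, 0 and 2 UMIs. Slc37a1 rose by 1.96 ± 0.18 (adjusted p = 0.000422), opposite to Slc37a4, and Slc37a2 had 2927 UMIs in the duodenum against 7 and 5 in jejunum and ileum and did not pass the filter of the zone test. Pdk1 and Pdk3 fell by 1.54 ± 0.46 and 1.08 ± 0.30 (adjusted p = 0.0264 and 0.0198), and Pdk2 had 0.26 ± 0.27 and an adjusted p of 0.430. The call of Pdk1 was lost without the duodenum (-1.06) or the ileum library (-1.24), and that of Pdk3 with odd landmarks only and without the jejunum (-0.88) or the ileum library (-1.04). Pck2, the mitochondrial isoform of Pck1, was at 0.0153, 0.00957 and 0.0126 by segment, with -0.12 ± 0.52 and an adjusted p of 0.851 by zone. Slc5a8, the other sodium-coupled monocarboxylate carrier, was jejunal and ileal, with 8, 2954 and 7799 UMIs, and had 0.89 ± 0.28 by zone (adjusted p = 0.0311), a call lost without TMM factors and without the jejunum (1.04) or the ileum library (0.89).

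By segment, 21 of 65 pathway genes with at least 100 UMIs (32.3%) were past 2-fold higher in the duodenum than in the ileum and 6 (9.23%) past 2-fold lower, beside the 11.0% and 12.0% of all genes given above. The median log2 ratio was 0.44, against 0.00058 over all genes, and with 1 library a segment there is no test. All 5 genes for glucose exit and sugar entry were past it, with levels of 5.16, 1.43 and 0.0788 for Slc2a2 and 0.957, 0.326 and 0.154 for Slc2a5. Slc5a1, Khk and Tkfc were the other genes of that list, with log2 ratios of 1.93, 1.82 and 3.32. Ppargc1a, at 1.49, 0.590 and 0.247, was the only 1 of 15 regulators past 2-fold higher, and no regulator was past it in the other direction. Of 19 genes for substrate entry 5 were past 2-fold higher, among them Got2, at 0.430, 0.171 and 0.0924, and Pcx, at 0.410, 0.266 and 0.158. The 2 past 2-fold lower were Glud1 and Slc5a8, with log2 ratios of -1.22 and -10.1. Of the 9 genes for one-way steps of glycolysis, Pfkm, Pkm and Pdha1 were past 2-fold higher (log2 ratios of 2.07, 1.66 and 1.24) and the hexokinases Hk1 and Hk2 past 2-fold lower (-3.14 and -5.25), with a median of 0.93.

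Other cell classes were read against the summed enterocyte markers, since free RNA of enterocytes can enter a droplet. The share of free RNA was not measured, and doublets were not removed. If free RNA were made up like the kept absorptive cells, a class that only carries it would match the 22 enterocyte markers. That is, the gene would be at about the same percent of the absorptive level as they are. This premise was not tested. In stem and proliferating cells (ISC/proliferating, 77, 56 and 92 cells) these markers were at 7.30%, 5.05% and 5.07% of the absorptive level. Fbp1 was at 60.1% (49.1 to 72.8), 76.0% (49.7 to 111) and 269% (186 to 376) there, and Slc37a4 at 61.6% (50.5 to 74.4), 61.6% (41.6 to 87.9) and 103% (71.1 to 145). G6pc was at 6.87% (3.92 to 11.2), 0% and 6.93% (0.839 to 25.0), with 16, 0 and 2 UMIs, so it was at or near the background of the markers in these cells. The jejunal 0 UMIs allow up to 5.92% by the exact interval. Slc5a12 had 1, 1 and 3 UMIs in them. Pdk4 was at 26.5%, 11.4% and 14.2%, with each interval above the marker percent.

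In enteroendocrine cells (EECs, 53, 24 and 94 cells), which make gut hormones, the markers were at 16.9%, 14.5% and 12.2%. Fbp1 was at 38.5%, 112% and 148% of its absorptive level, Slc37a4 at 37.0%, 42.8% and 123%, and Pdk4 at 51.9%, 51.3% and 73.5%. The lower bounds of all these intervals were above the marker percent. These percents rest on 6 to 29 UMIs each, and the level of Fbp1 in EECs was 0.367, 0.374 and 0.115, beside absorptive levels of 0.954, 0.335 and 0.0779. G6pc was at 21.7%, 5.57% and 14.4%, with intervals that held the marker percent.

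Pck1 was above the marker percent in goblet cells of all 3 libraries. In goblet cells (180, 162 and 405 cells), the mucus-secreting cells, Pck1 had 158, 179 and 276 UMIs and levels of 0.596, 0.972 and 0.547, which were 140% (119 to 164), 22.1% (18.9 to 25.5) and 49.2% (43.6 to 55.4) of the absorptive level, beside markers at 12.8%, 12.1% and 9.68%. Slc37a4 was above the markers in duodenal (18.5%, 13.6 to 24.6) and ileal (51.3%, 38.2 to 67.5) goblet cells, G6pc in duodenal (18.2%, 14.0 to 23.4) and Pdk4 in jejunal ones (17.1%, 12.5 to 22.8). The excess of Pck1 was not confined to goblet cells, since it was above the markers in 2 of 3 libraries for B cells (at up to 130%), macrophages or monocytes (up to 85.4%), EECs (up to 71.5%) and ISC/proliferating cells (up to 20.7%). In T cells Pck1 was at 24.9% (3.02 to 90.0), 26.4% (20.6 to 33.3) and 25.9% (21.9 to 30.3) of the absorptive level, with 2, 70 and 153 UMIs and markers at 30.1%, 9.23% and 15.2%, so that its intervals lay above the markers in jejunum and ileum. Slc37a4 was above the markers in T cells of the jejunum (24.3%, 9.78 to 50.1) and the ileum (63.9%, 49.5 to 81.1). Pdk4 was above them in 1 of 3 libraries for T cells and in 2 of 3 for IgA B cells. The T cell percents of G6pc (16.5%, 13.6% and 13.7%) had intervals that held the marker percent. Slc5a12 had 7 UMIs in 22 macrophages or monocytes of the duodenum, 312% (125 to 643) of the absorptive level, against 3 and 0 UMIs in the jejunum and ileum.

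**Figure D4:**
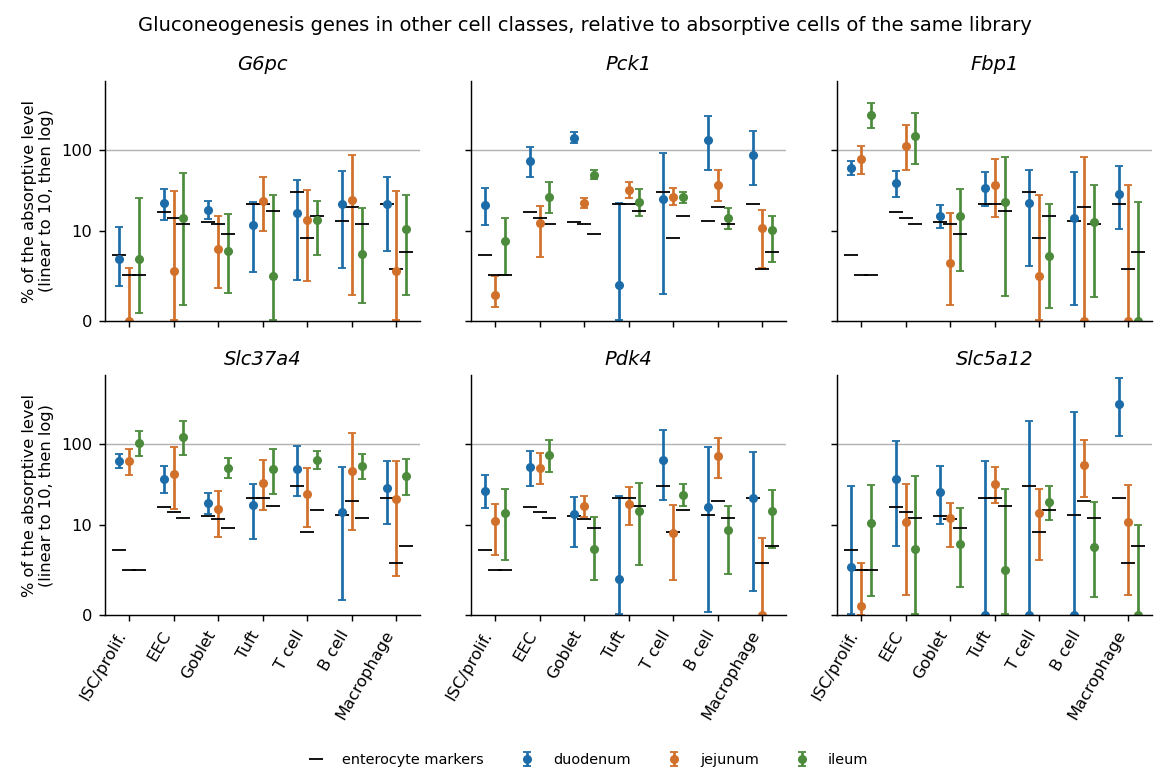
Level of each gene in other cell classes as a percent of its level in absorptive cells of the same library (linear to 10, then log), with exact 95% Poisson intervals of the class sum, beside the summed enterocyte markers (black bars). Fbp1 and Slc37a4 were well above the black bars in ISC/proliferating cells of all 3 libraries (60.1% to 269% and 61.6% to 103%), and G6pc was at 0% to 6.93% there.

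An unnamed cluster of 1036 cells (120, 205 and 711 by segment), led by the pancreatic enzyme genes Ctrb1 and Prss2 and lacking a clear class, held G6pc at 77.8%, 87.7% and 95.6% of the absorptive level and Pck1 at 79.5%, 39.5% and 59.8%, beside markers at 57.9%, 43.2% and 79.0%. Slc37a4 was at 79.7% to 151% there. Its interval lay above the marker percent in 3 of 3 libraries, that of G6pc in 2 and that of Pck1 in 0. Early enterocytes (372, 281 and 410 cells) held Fbp1 at 144% to 235% of the level of all absorptive cells and Slc37a4 at 132% to 179%, and Pck1 at only 19.1% to 44.2%.

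Within single absorptive cells, co-detection was measured at 800 UMIs a cell among cells of the same library and zone (11622 cells in 15 strata). Pck1 and Pdk4 were found together in 221 cells where 117 were expected if unrelated, a log2 odds ratio of 1.57 that was above the expectation in 13 of 15 strata. Pdk4 and Slc5a12 were found together in 60 cells against 32.8 (log2 odds ratio 1.15, above in 10 of 15 strata), and Pck1 and Slc5a12 in 116 against 74.4 (1.02, above in 9 of 15). The 3 genes of the jejunal group thus formed the 3 highest pairs. Within the duodenal group, G6pc and Fbp1 were found together in 26 cells against 24.6 (0.10), G6pc and Slc37a4 in 30 against 28.6 (0.08) and Fbp1 and Slc37a4 in 23 against 18.4 (0.38). Pairs across the groups lay between -0.42 (Slc37a4 and Pdk4) and 0.69 (Slc37a4 and Slc5a12). G6pc was found with Pdk4 in 41 cells against 28.8 (0.62), with Pck1 in 69 against 54.9 (0.46) and with Slc5a12 in 15 against 16.8 (-0.19). G6pc was thus found more with Pdk4 and Pck1 than with its own group. At 1600 UMIs G6pc and Fbp1 had 98 cells against 82.3 (0.37), G6pc and Slc37a4 126 against 102 (0.44) and Fbp1 and Slc37a4 84 against 70.1 (0.36). G6pc then had 214 against 153 with Pck1 (0.87), 126 against 94.2 with Pdk4 (0.58) and 64 against 57.4 with Slc5a12 (0.21). The Pck1 and Pdk4 pair then had 549 against 308 (1.92) and was above the expectation in 15 of 15 strata. Cells of 1 library share their source, so these are descriptions without a p.

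**Figure D5:**
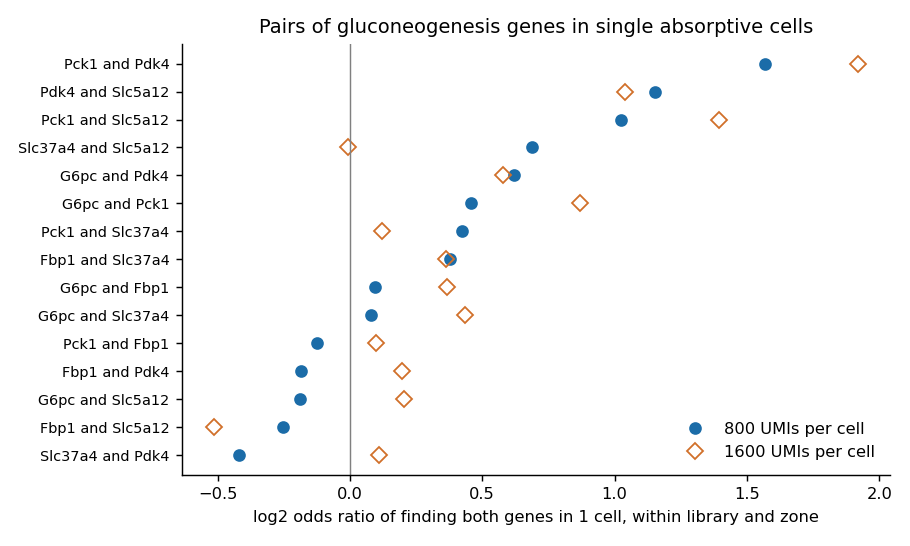
Log2 odds ratio of finding UMIs of both genes in the same absorptive cell, stratified by library and zone, at 800 and 1600 UMIs a cell. The pairs among Pck1, Pdk4 and Slc5a12 were highest at 800 UMIs (1.57, 1.15 and 1.02), and the other pairs at that depth lay between -0.42 and 0.69.

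By the variance over the mean, Pck1 had the widest spread between cells among the genes described here, in each library. This measure was not adjusted for a gene's level, so the ranking holds for it alone. At 1600 UMIs a cell its Fano factor, the variance over the mean, which is 1 for pure counting noise, was 2.54 in the jejunum, 1.75 in the duodenum and 1.78 in the ileum. It was 2.38 in zones 2 and 3 of the jejunum alone, and 1 jejunal cell held 106 UMIs of Pck1. Slc37a4 had Fano factors of 1.03, 1.12 and 1.00 and a highest cell of 15 UMIs. G6pc was between them at 1.30, 1.24 and 1.12.

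The genes whose levels over the 15 sums of library and zone were most like those of each gene were found by Pearson correlation of log2 levels among 3681 genes, as a description, since the sums share libraries. For G6pc they were Ehhadh, a peroxisomal enzyme of fatty acid oxidation (r = 0.988), Heatr5a (0.986) and Cdip1 (0.985). For Slc37a4 they were Pdxk (0.986), which makes active vitamin B6, the regulator Ppargc1a (0.983) and the disaccharidase Sis (0.982). For Fbp1 they were the glutathione transferases Gstm1 (0.985) and Gstm3 (0.980) and the lactate carrier Slc16a1 (0.978). For Pck1 they were Soat2 (0.962), which esterifies cholesterol, Sec24c (0.930) and Tfg (0.927). Pdk4 and Slc5a12 both had the peptidase Ace first (0.930 and 0.938), followed by Srebf1 (0.900) and Slc38a10 (0.899) for Pdk4 and by Vwa1 (0.937) and Gchfr (0.930) for Slc5a12. These neighbours partly rest on the segment. After centring within each library none of those of Pck1 or Pdk4 was among the 10 nearest, which Cobl (0.964) led for Pck1 and Pole3 (0.95) for Pdk4, and of those of Slc5a12 only Vwa1 was. Of those of Slc37a4, Pdxk and Sis were and Ppargc1a was not, while those of G6pc and Fbp1 all were.

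Among the 6 genes themselves, G6pc, Fbp1 and Slc37a4 had correlations of 0.912 to 0.961 with each other over the 15 sums, and Pck1, Pdk4 and Slc5a12 of 0.819 to 0.895. Pairs across these groups had -0.181 to 0.297. After centring each library, which removes the segment, G6pc and Slc37a4 had 0.933 and Fbp1 and Slc37a4 0.931, Pck1 and Pdk4 had 0.869, and Fbp1 and Pdk4 had -0.198. The groups were less apart on this scale, as Pdk4 and Slc5a12 had 0.613, below pairs of different groups such as G6pc and Slc5a12 (0.771), Slc37a4 and Slc5a12 (0.670) and G6pc and Pck1 (0.644).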

How the data were processed

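Cells of 3 mice were pooled for each segment, sorted for live cells and sequenced as 1 10x 3' library each. The authors counted UMIs with Cell Ranger 3.0.2, and the deposited files hold these counts as whole numbers per gene and called barcode (builds GRCm38 and mm10 in the submitters' processing notes). The study's filters were applied (UMIs from 800 to 50000, genes from 200 to 6000, mitochondrial share up to 40%), and no doublets were called or removed. Counts were integrated and clustered with Seurat 5.3.0 in R 4.3.3 (2000 variable genes, 30 components, resolution 0.8), with the 76 genes of the member and pathway lists left out of the variable genes. The 22 clusters were named by 12 marker lists. A cluster stayed unnamed (1468 cells in 3 clusters) with under 3 markers detected, with leading genes or depth against its name, or with a marker score under 0.4, a limit chosen after the clusters were seen. Leading genes counted against a name only where they were markers of another class. The cluster of 1392 cells led by haemoglobin genes, which are in no marker list, thus kept the name enterocyte at a score of 0.491.

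The 6 genes, the pathway lists and the tests were chosen with earlier results of these data known. Absorptive cells were split into zones within each library by landmark genes, and UMIs were summed by library and zone. edgeR 4.0.16 (quasi-likelihood, TMM factors, library block) tested zone 5 against zone 1, and landmarks and the 6 genes were left out of counts of called genes. The replicates are 3 segments of the same pooled mice, 1 library each, so p-values measure the spread between these libraries, and segments were not tested against each other. The rule for naming pathway genes took the 8 called genes with the largest change in each direction and all paralogs of the 6 genes. Further pathway genes are named only to complete a list or a count, or to say which calls held or were lost. For each of the 6 genes the 3 genes most alike are given. The log2 differences per library used no pseudocount in the levels printed, while correlations used log2 of the level plus 0.1 among genes with a mean level of at least 0.3. The test was tested on simulated data. Alternatives were another mitochondrial limit, denominator, definition of absorptive cells, number of zones, landmarks, scaling, filter, DESeq2 1.42.0, no library block and each library left out. Reads shared with near-identical paralogs were not separated. Levels used Python 3.11.15 with scipy 1.17.1, and the intervals cover counting error only.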

Additional observations from a re-analysis of the deposited data

Results flagged for a closer look

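Barcodes over 40% mitochondrial UMIs were left out of every comparison above, and they held UMIs of all 6 genes. Taken as absorptive by their markers, 4961 duodenal, 3444 jejunal and 823 ileal barcodes held 5133 UMIs of G6pc, 9901 of Pck1, 1650 of Fbp1, 3183 of Slc37a4, 3495 of Pdk4 and 2612 of Slc5a12. Each gene had its highest level in the same segment as in the kept cells. G6pc was at 1.09, 0.438 and 0.126 per 10000 UMIs and Fbp1 at 0.378, 0.103 and 0.0283 in duodenum, jejunum and ileum. Pck1 was at 0.612, 2.88 and 0.854 and Slc5a12 at 0.140, 0.801 and 0.174. With 1 library a segment these values have no test.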

How the results depend on the processing

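The difference of zone 5 from zone 1 kept its sign for G6pc, Fbp1, Slc37a4 and Pdk4 under the alternatives run. It was -1.88 for G6pc, -3.98 for Fbp1 and 0.24 for Pdk4 with the position score cut into 3 zones, -2.05 for G6pc with odd landmarks, 0.24 for Pdk4 with even landmarks and -2.16 for G6pc with absorptive cells by markers. With TMM-scaled sums, an alternative chosen after seeing the data, it was -1.91 for G6pc, -4.14 for Fbp1 and 1.11 for Pdk4. That of Pck1 turned to 0.027 with odd landmarks, 0.51 with at most 20% mitochondrial UMIs, 0.0063 by markers and 0.23 with TMM. With at most 20% mitochondrial UMIs it was 0.73 for Pdk4 and turned to 0.30 for Slc5a12. The causes were not tested. The log2 ratio of duodenum to ileum was 2.68 for G6pc, -1.65 for Pck1, 4.30 for Fbp1, 2.52 for Slc37a4, -0.15 for Pdk4 and -0.96 for Slc5a12 with at most 20% mitochondrial UMIs. With no limit on them it was -1.10 for Pck1, 3.28 for Fbp1, 2.06 for Slc37a4 and -0.56 for Slc5a12. With nuclear-encoded UMIs as denominator it was 3.07 for G6pc, -1.16 for Pck1, 3.84 for Fbp1, 2.50 for Slc37a4, 0.48 for Pdk4 and -0.55 for Slc5a12. With the T cell level subtracted it was 3.36 for Fbp1, 2.76 for Slc37a4, -0.82 for Pdk4 and -0.46 for Slc5a12, where the duodenal T cells held 4, 9, 5 and 0 UMIs of these genes. As the mean over cells it was 2.64 for G6pc, -1.74 for Pck1, 4.19 for Fbp1, -0.083 for Pdk4 and -1.06 for Slc5a12. At 1600 UMIs a cell the co-detection log2 odds ratio turned to 0.21 for G6pc and Slc5a12, 0.097 for Pck1 and Fbp1, 0.20 for Fbp1 and Pdk4, 0.11 for Slc37a4 and Pdk4 and -0.0087 for Slc37a4 and Slc5a12. Without TMM factors 6 pathway genes were called higher and 1368 of all genes were. Without the library block 7 pathway genes were called higher and 16 lower. Without 1 library, 8 to 13 were called higher and 22 to 29 lower. Of 42 calls, 25 held in all alternatives with a library block, and no call turned its direction. The zone test with its library block is itself paired, since zones 1 and 5 come from the same library. Between segments no test was run, as each is 1 library. Low counts limit the ileal Fbp1 and the duodenal Slc5a12, with 5 UMIs in zone 5 of the former and 39 and 29 in zones 1 and 5 of the latter.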
